A study of Mus musculus with 4 samples.

Results

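A set of 10 genes of glucose uptake and glycolysis were followed across the immune cells of mouse livers, of 31053 genes in the count matrix. The 10 genes, chosen by symbol, were Slc2a1, Hk2, Pfkp, Aldoa, Gapdh, Pgk1, Pgam1, Eno1, Pkm and Ldha. All 10 had UMIs, the molecule tags that mark each captured transcript, from 5825 for Slc2a1 to 173180 for Gapdh. The libraries came from the livers of 8-week male mice that carried MC38 tumours, a mouse colon carcinoma line, and that were killed 3 weeks after tumour injection. The study addressed liver metastasis after surgical stress. Ex mice had exercised before the operation and Sed mice had stayed sedentary, with 2 libraries of each group. Immune cells were enriched with CD45 beads to a purity above 90% and captured with 10x Chromium 3' chemistry (v3.1). The labels do not say whether a library came from 1 animal or several, so p-values measure the spread between these libraries, which may be technical. With 2 Ex against 2 Sed libraries, an exact permutation test cannot give a p below 0.333, and the adjusted p-values below come from edgeR's quasi-likelihood test, which borrows its error estimate across all genes.

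The 28525 barcoded columns held 135480097 UMIs, with 32969739 and 23918964 in the Ex libraries and 37563756 and 41027638 in the Sed libraries. After filtering, 5763 and 4097 Ex cells and 6839 and 7141 Sed cells remained. Pairs of libraries shared from 7 to 25 barcode sequences, at most 0.313% of the smaller library. Cells were clustered without the 10 genes and without a companion list of 50 genes of glycolysis, lactate and pyruvate handling and the response to hypoxia, and clusters were named "-like" from marker genes. Levels are given as CPM, the UMIs of a gene scaled to 1000000 UMIs of the class in that library. The defining markers were present in all 4 libraries in the classes that were compared, such as Clec4f from 2315 to 5685 CPM in Kupffer-like cells, S100a8 from 55815 to 94839 CPM in neutrophil-like cells and Foxp3 from 249 to 323 CPM in Treg-like cells. Other markers differed between groups or libraries. In other macrophage-like cells Spp1 was at 64.5 and 98.5 CPM in Ex and 2523 and 828 CPM in Sed libraries. Ms4a7 and Cx3cr1 overlapped there. Retnlg in neutrophil-like cells was at 8656 and 9589 CPM in Ex and 32560 and 29049 CPM in Sed libraries. Camp there was higher in both Ex libraries. Timd4 in Kupffer-like cells was at 66.6 CPM in Sed replicate 1 and from 375 to 537 CPM in the others. The CD8 T-like class needs still more care. It pools 3 clusters led by Pdcd1, Havcr2, Gzmk or Tox, whose cells were nearly all Sed, with 3 clusters that were mostly Ex. The mostly Ex clusters had Ly6c2 or Itga1, which the marker lists place with monocytes and ILC1 cells, and no CD8 marker among their 10 leading genes, and they entered the class through the share of their cells with Cd8a or Cd8b1 UMIs.

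Glycolysis splits glucose into pyruvate in the cytosol and yields ATP without oxygen, and its intermediates feed the synthesis of nucleotides, lipids and amino acids. Activated T cells, inflammatory macrophages and neutrophils are known to rely on it heavily. The transcription factor HIF-1 raises many of its genes when oxygen is low, through DNA sites whose core reads ACGTG or GCGTG.

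The genes act in sequence. Slc2a1 (chr4:119108711-119137983, plus strand) encodes the glucose transporter GLUT1. Hk2 (chr6:82725025-82774454, minus strand) encodes hexokinase 2, which traps glucose in the cell as glucose 6-phosphate, and Pfkp (chr13:6579768-6648777, minus strand) encodes the platelet form of phosphofructokinase, which catalyses the committed step. Aldoa (chr7:126795234-126800751, minus strand) encodes aldolase A, which splits fructose 1,6-bisphosphate. Gapdh (chr6:125161715-125166467, minus strand) and Pgk1 (chrX:106187100-106203699, plus strand) encode the next pair of enzymes, which make NADH and ATP. Pgam1 (chr19:41911923-41918660, plus strand) and Eno1 (chr4:150236721-150248879, plus strand) encode phosphoglycerate mutase and enolase. Pkm (chr9:59656368-59679375, plus strand) encodes pyruvate kinase and Ldha (chr7:46841475-46855627, plus strand) the lactate dehydrogenase subunit that turns pyruvate into lactate. All 10 are annotated as protein-coding genes in GENCODE vM21 on GRCm38. A 3' library reads transcripts near their 3' end and counts them per gene, so forms such as the splice variants of Pkm were not told apart. The 6 other rows whose symbols extend a member's name, or repeat it, held from 1 to 147 UMIs each (Eno1b the most), so that their reads could add little to the members. Pkmyt1, which the same letter rule picks up with 760 UMIs, is a kinase gene unrelated to Pkm.

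The promoters of Ldha, Pgk1, Pkm and Aldoa are shown because these 4 genes passed the test of Ex against Sed in Treg-like cells described below. Each is the first-listed start of the gene in the RefSeq table (GRCm38.p6), from 250 bases before the start to 50 after it, written 5' to 3' on the gene's strand. Capitals mark ACGTG or GCGTG on either strand, and overlapping matches, as in CACGTG, are joined in 1 run of capitals.
Ldha, chr7:46845554-46845853, plus strand: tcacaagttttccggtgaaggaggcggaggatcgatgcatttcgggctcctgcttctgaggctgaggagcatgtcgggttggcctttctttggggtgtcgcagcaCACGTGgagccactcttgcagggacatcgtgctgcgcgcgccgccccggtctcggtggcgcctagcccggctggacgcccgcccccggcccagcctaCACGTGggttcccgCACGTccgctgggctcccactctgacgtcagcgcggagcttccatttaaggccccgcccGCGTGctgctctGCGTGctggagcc
Pgk1, chrX:106186850-106187149, plus strand: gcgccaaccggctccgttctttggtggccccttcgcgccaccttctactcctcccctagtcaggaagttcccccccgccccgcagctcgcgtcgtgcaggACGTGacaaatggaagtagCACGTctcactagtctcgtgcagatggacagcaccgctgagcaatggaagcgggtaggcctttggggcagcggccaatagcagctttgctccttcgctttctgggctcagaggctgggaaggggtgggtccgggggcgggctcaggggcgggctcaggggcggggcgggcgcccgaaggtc
Pkm, chr9:59656326-59656625, plus strand: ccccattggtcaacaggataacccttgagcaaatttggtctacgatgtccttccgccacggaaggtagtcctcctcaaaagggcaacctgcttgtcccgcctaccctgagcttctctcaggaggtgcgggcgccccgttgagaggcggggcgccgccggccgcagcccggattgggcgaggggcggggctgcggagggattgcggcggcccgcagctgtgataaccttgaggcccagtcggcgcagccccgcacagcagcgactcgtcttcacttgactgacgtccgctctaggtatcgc
Aldoa, chr7:126800398-126800697, minus strand: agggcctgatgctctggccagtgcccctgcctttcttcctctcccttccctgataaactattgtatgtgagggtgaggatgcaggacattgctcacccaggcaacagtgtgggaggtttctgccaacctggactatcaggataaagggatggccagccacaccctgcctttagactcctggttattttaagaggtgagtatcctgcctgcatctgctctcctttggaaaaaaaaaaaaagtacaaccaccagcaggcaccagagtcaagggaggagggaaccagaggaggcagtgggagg
The Ldha window held 5 matches of ACGTG and 2 of GCGTG, and the Pgk1 window 2 of ACGTG. The first-listed windows of Pkm and Aldoa held none. The other listed Pkm start (chr9:59656977-59657276) held 2 of ACGTG, and the 2 other Aldoa starts (chr7:126799205-126799504 and chr7:126799129-126799428) held 1 each. Of the 10 members' first-listed windows 8 held either core, against 43.773% of the 26994 promoters in the table. A match is a run of letters and says nothing of whether a factor binds there.

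The summed level of the 10 genes was ordered over the 10 named, non-dividing immune classes that held 30 cells or more in each of the 4 libraries. T cells of unresolved lineage (332 and 195 Ex, 300 and 81 Sed cells), unnamed clusters and non-immune cells were left out of this order. In the T cells of unresolved lineage the 10 genes took 0.192 and 0.140% of the UMIs in Ex and 0.124 and 0.162% in Sed libraries. Macrophage-like cells other than Kupffer-like cells had the highest mean level, at 5750 and 7108 CPM in Ex and 9016 and 5998 CPM in Sed libraries, with a mean of 6968 CPM over the 4. Among these 10, monocyte-like cells followed with a mean of 4115 CPM and Treg-like cells with 4086 CPM. Neutrophil-like cells averaged 3342 CPM, conventional dendritic-like cells 2853 CPM and Kupffer-like cells 2725 CPM. NK-like cells averaged 2346 CPM, CD8 T-like cells 2240 CPM, ILC1-like cells 1770 CPM and B-like cells 1015 CPM. Ranges over the 4 libraries overlapped between neighbours in this order except between the highest class and monocyte-like cells, and between ILC1-like and B-like cells, so that the order in the middle is not firm. The top rank was not separate from Treg-like cells, whose range (2453 to 6306 CPM) reached that of other macrophage-like cells (5750 to 9016 CPM). In Ex replicate 1 Treg-like cells were the higher of these, at 6306 against 5750 CPM. The dividing classes stood outside this order, with means of 5233 CPM in dividing myeloid cells and 4772 CPM in dividing lymphocytes.

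**Figure D1:**
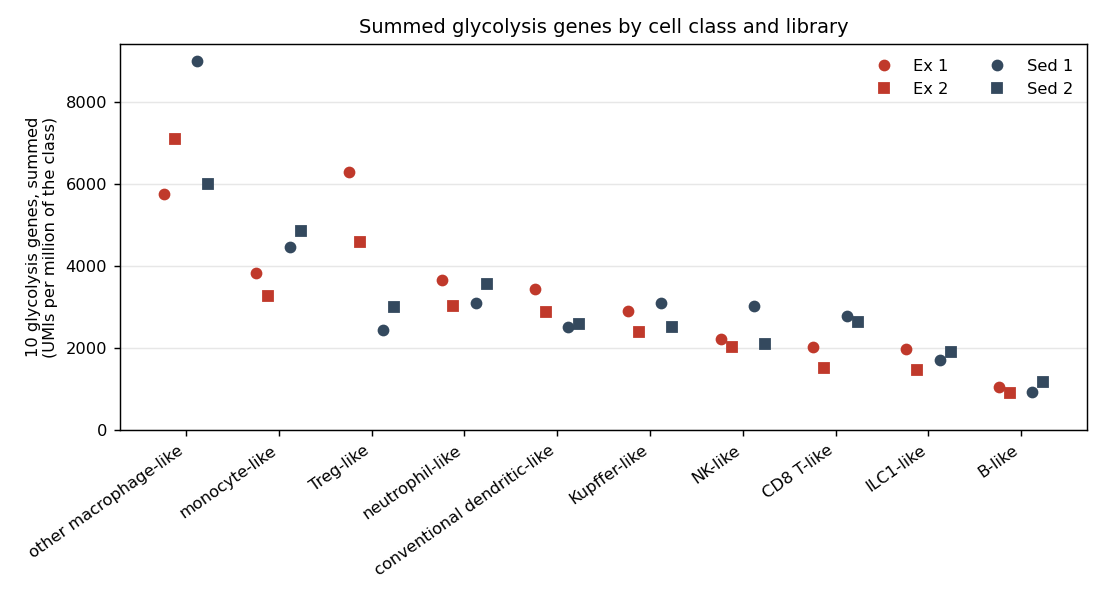
Summed level of the 10 glycolysis genes in 10 cell classes, in CPM, on a linear axis; each point is 1 library, Ex left of Sed. The classes run from the highest mean to the lowest, from 6968 CPM in other macrophage-like cells to 1015 CPM in B-like cells, and in Treg-like cells both Ex points (6306 and 4594 CPM) lie above both Sed points (2453 and 2993 CPM).

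The genes did not all follow this order. Gapdh, Pgk1, Pkm, Pgam1 and Aldoa tracked the sum across the 10 classes with Pearson's r from 0.944 to 0.996, which is a description, since each is part of the sum. Pfkp tracked it least (r = 0.419) and had its highest class mean in conventional dendritic-like cells, 167 CPM, and its lowest in Kupffer-like cells, 29.7 CPM. As a ratio of the highest to the lowest class mean, Hk2 spanned the widest range (47.2), from 3.50 CPM in ILC1-like cells to 165 CPM in other macrophage-like cells. Eno1 spanned the narrowest ratio (4.18), from 64.9 CPM in B-like cells to 272 CPM in other macrophage-like cells. Across 7677 genes, the class means most like the summed level were those of Zbp1 (r = 0.947), Chmp4b (0.934), Prelid1 (0.925), Lsm10 (0.907) and Cdkn1a (0.889), over 10 classes that share libraries.

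Class contrasts were fitted with the library as a block on 10557 genes. Most Kupffer-like cells (1307) lay in a cluster with a median of 870 UMIs per cell, and 582 in one with 8750. The 2 groups filled these clusters unequally, and no class contrast was run without the cluster of few UMIs. In other macrophage-like against Kupffer-like cells 9 of the 10 genes were higher, where 21.4% of all genes were called and 11.8% were called higher. Slc2a1 was higher by 2.84 ± 0.29 on the log2 scale (SE), Pfkp by 2.02 ± 0.28 and Pgam1 by 1.71 ± 0.22, and the smallest called difference was Ldha at 0.86 ± 0.24 (edgeR, adjusted p = 0.00752). The exception was Hk2, at 0.49 ± 0.25 (edgeR, adjusted p = 0.177). Of 39 companion genes tested 21 were higher and 1 lower, among them Hif1a, the oxygen-sensing factor, at 1.48 ± 0.23, Slc16a3, a lactate exporter, at 3.25 ± 0.52, and Vegfa, a HIF target, at 4.68 ± 0.46. Kupffer-like against CD8 T-like cells split the first enzymes of the pathway, with 3 genes higher and 1 lower where 55.0% of all genes were called, 29.2% higher and 25.9% lower. Hk2 was higher by 3.92 ± 0.33, while Pfkp was lower by 2.36 ± 0.28, and Pgam1 and Pkm were higher by 0.67 and 0.70. With the stricter cell filter Pgam1 and Pkm no longer passed (edgeR, adjusted p = 0.270 and 0.154), and 1 gene was higher and 2 lower, as with the members among the clustering genes.

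Neutrophil-like cells had 9 of the 10 genes higher than Kupffer-like cells, where 67.7% of all genes were called and 31.0% called higher, and 9 higher than CD8 T-like cells, where 72.1% were called and 35.4% called higher. Slc2a1 was the most different from Kupffer-like cells, by 3.41 ± 0.29, and Hk2 from CD8 T-like cells, by 3.73 ± 0.33. These differences depend on scaling. The 11 neutrophil markers alone made up from 179580 to 284680 CPM. Without the TMM scaling factor, 4 genes were higher and 1 lower in each of the 2 contrasts, and the other 5 were not called. Treg-like against CD8 T-like cells had 1 gene higher, Pkm by 1.14 ± 0.25 (edgeR, adjusted p = 0.00296; 0.186 without Ex replicate 1 and 0.194 without Ex replicate 2), where 6.44% of all genes were called and 3.11% called higher.

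**Figure D2:**
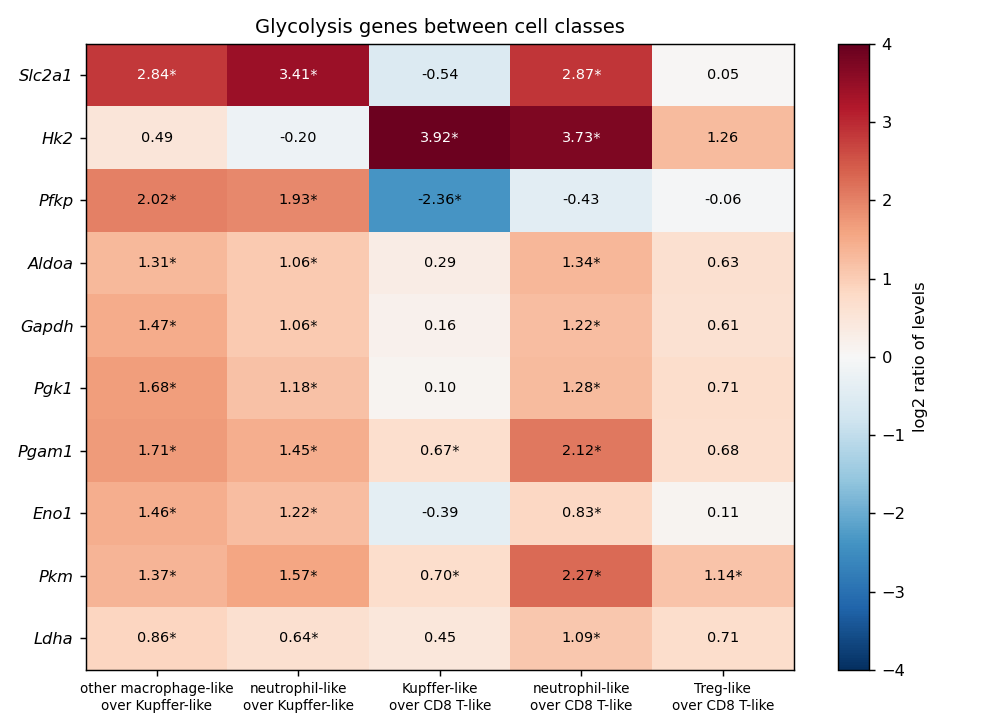
Log2 ratio of the level in the first class over the second for each glycolysis gene (rows) in 5 contrasts (columns), from edgeR with the library as a block; stars mark adjusted p under 0.05. Hk2 is the exception in the first 2 columns (0.49 and -0.20) and the largest value in the third (3.92), where Pfkp is the lowest (-2.36).

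CD4 T-like cells could be compared only within the 2 Ex libraries, since the Sed libraries had 9 and 14 of them. Their 10 genes summed to 3842 and 3880 CPM in Ex and to 3124 and 3271 CPM in Sed libraries, and no test of that difference was made. In the Ex libraries CD8 T-like cells had 6 of the 10 genes lower than CD4 T-like cells and none higher, where 6.43% of 9696 genes were called and 3.25% called lower. Hk2 was lower by 2.49 ± 0.46, Pkm by 1.18 ± 0.18 and Gapdh by 1.05 ± 0.17. Treg-like cells had Pkm higher than CD4 T-like cells by 0.78 ± 0.18 and Ldha by 0.60 ± 0.17, where 2.36% were called and 1.55% called higher. Kupffer-like cells had no gene higher and 2 lower than CD4 T-like cells, Pfkp by 2.13 and Eno1 by 0.74, where 36.9% were called and 15.9% called lower. Neutrophil-like cells had 7 higher, where 52.0% were called and 29.4% called higher. Without the scaling factor that contrast had 2 genes higher and 5 lower, so its direction depends on the scaling. The CD4 T-like cells were themselves uneven. In a cluster led by Tbc1d4 and Nrn1 the genes summed to 4846 and 5204 CPM in the Ex libraries (40 and 20 cells), and in one led by Tbc1d4, Cd4 and Slamf6 to 2345 and 2307 CPM (69 and 35 cells).

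In Treg-like cells, the Foxp3-bearing regulatory T cells, 4 of the 8 glycolysis genes tested rose in Ex against Sed mice and none fell, where 1.54% of 2916 genes were called and 0.617% were called higher. The class held 54 and 44 cells in the Ex and 32 and 45 in the Sed libraries. The median log2 change was 1.07 over the 8 genes and -0.03 over all genes tested. The genes that rose were Aldoa, Ldha, Pgk1 and Pkm, which act from the middle of the pathway to its end.

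Aldoa had 912 and 696 CPM in Ex and 267 and 298 CPM in Sed libraries, a log2 change of 1.49 ± 0.27 (edgeR, adjusted p = 1.5e-05). Ldha had 958 and 661 CPM in Ex and 267 and 315 CPM in Sed libraries, a change of 1.46 ± 0.27 (edgeR, adjusted p = 2.2e-05). For both, either Ex library was at least 2 times either Sed library. Pgk1 had 474 and 356 CPM in Ex and 111 and 274 CPM in Sed libraries, a change of 1.12 ± 0.30 (edgeR, adjusted p = 0.0168). Pkm had 979 and 779 CPM in Ex and 385 and 539 CPM in Sed libraries, a change of 0.92 ± 0.26 (edgeR, adjusted p = 0.0302). In these genes the Ex and Sed libraries did not overlap, and Sed replicate 1 was the lowest. Their calls were not equally firm. Aldoa and Ldha passed in every alternative that kept all 4 libraries. Pgk1 did not pass with DESeq2's Wald test, a stricter cell filter, doublets kept or the members among the clustering genes. Pkm passed only with DESeq2 size factors and with the replicate number as a block.

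The other members leaned the same way without passing the test. Gapdh had 2110 and 1547 CPM in Ex and 1149 and 1153 CPM in Sed libraries (log2 0.65, adjusted p = 0.238 by edgeR), and Pfkp, Pgam1 and Eno1 had log2 values of 1.07, 1.00 and 1.06 with adjusted p from 0.176 to 0.215. Hk2 and Slc2a1 had too few UMIs to be tested, with 12 and 6 UMIs of Hk2 in Ex and 2 and 0 in Sed libraries. Of the 10 genes, tested or not, 9 were higher in both Ex than in both Sed libraries, and Slc2a1 overlapped. Of the 6836 genes with at least 10 UMIs in the class 19.1% were. Per cell, the 10 genes took a median of 0.507 and 0.245% of a cell's UMIs in the Ex and 0.212 and 0.168% in the Sed libraries.

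Of 14 companion genes tested in Treg-like cells 2 rose and none fell. Tpi1, triosephosphate isomerase, the enzyme between Aldoa and Gapdh, had 505 and 293 CPM in Ex and 96.3 and 149 CPM in Sed libraries, a log2 change of 1.70 ± 0.33 (edgeR, adjusted p = 5.8e-05). Slc16a3, the lactate exporter MCT4, had 94.3 and 87.0 CPM in Ex and 7.41 and 24.9 CPM in Sed libraries, a change of 2.47 ± 0.65 (edgeR, adjusted p = 0.0141). Its Sed values rest on very few UMIs, as the class held 134964 and 120607 UMIs of all genes in the Sed libraries. The call of Slc16a3 held in 4 of 13 alternatives and that of Tpi1 in 10 of 14. No companion gene was called with DESeq2's Wald test or without Sed replicate 1, Sed replicate 2 or Ex replicate 1. Hif1a overlapped, at 304 and 230 CPM in Ex and 141 and 240 CPM in Sed libraries.

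The Treg-like count rests on every library. With any 1 library left out edgeR called fewer members or none. The median log2 change over the members tested was 0.78 and 1.44 without Sed replicate 1 and 2. It was 0.84 and 1.36 without Ex replicate 1 and 2. In these 4 fits every tested member kept a positive sign except 1 of 9 without Sed replicate 1. Foxp3 had 249 and 293 CPM in Ex and 274 and 323 CPM in Sed libraries, but the Sed cells also carried more CD8 and cytotoxic transcripts. Cd8a had 12.2 and 0 CPM in Ex and 111 and 191 CPM in Sed libraries, and Gzma 66.9 and 7.91 CPM in Ex and 808 and 2836 CPM in Sed libraries. Among the 46 and 40 Ex and 24 and 33 Sed cells without a UMI of Cd8a, Cd8b1 or Gzma, 3 members rose, Aldoa by 1.36, Ldha by 1.34 and Pfkp by 2.45, where 0.546% of 2382 genes were called and 0.378% called higher, and Pgk1 and Pkm no longer passed. Pfkp was there at 234 and 167 CPM in Ex and 41.8 and 28.9 CPM in Sed libraries, which is few UMIs in so few Sed cells. In the whole class Pfkp was at 1.07 and was not called. The summed genes of the cells kept were at 6699 and 4024 CPM in Ex and 2684 and 3096 CPM in Sed libraries. Cycling genes were at 1234 and 969 CPM in Ex and 897 and 1244 CPM in Sed libraries, and median depth was 5013 and 4558 UMIs per Ex cell and 3471 and 1891 per Sed cell; the part of depth in the result was not tested beyond sums thinned to an equal total, in which 3 members rose.

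**Figure D3:**
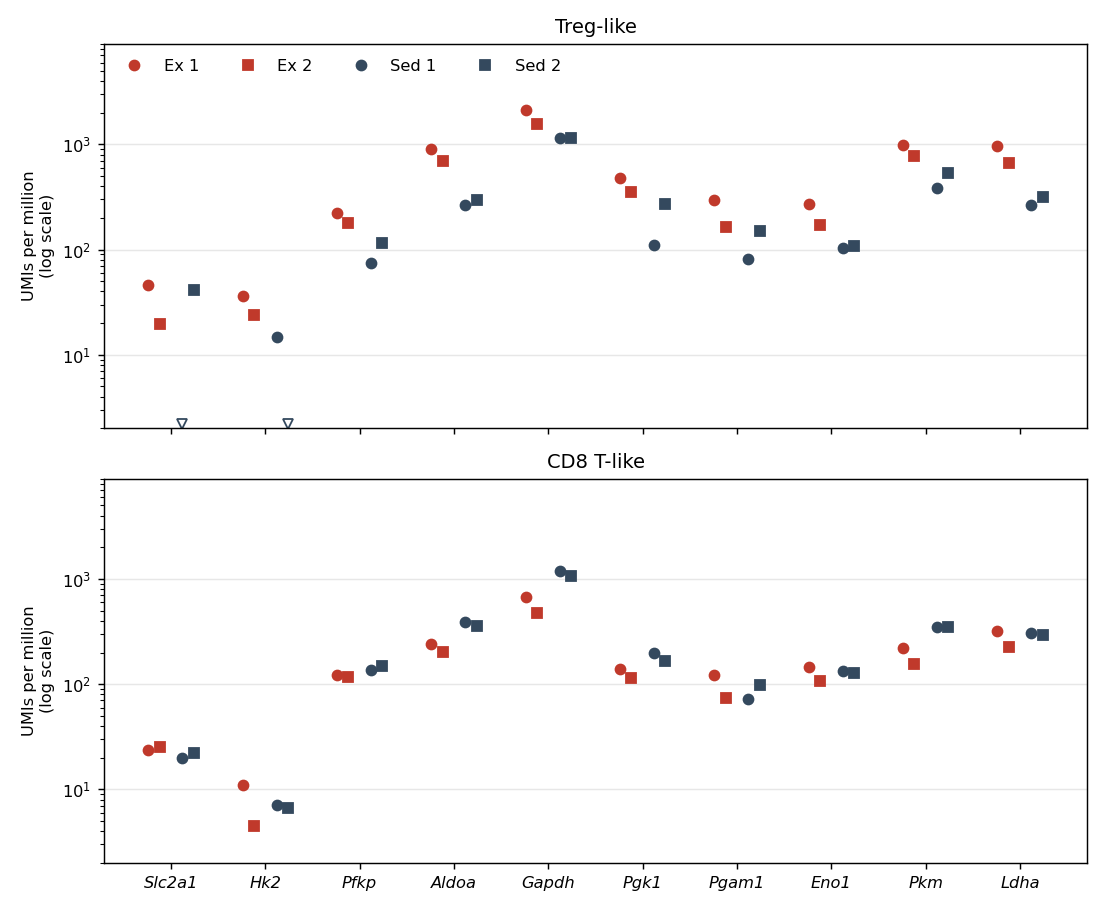
CPM of each glycolysis gene per library in Treg-like cells (top) and CD8 T-like cells (bottom), on a log axis, Ex left of Sed; open triangles at the foot mark libraries with 0 UMIs. Aldoa and Ldha part widely in Treg-like cells (for Ldha 958 and 661 CPM in Ex, 267 and 315 CPM in Sed), and Gapdh and Pkm lie lower in Ex than in Sed in the pooled CD8 T-like clusters.

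CD8-bearing T cells fell into clusters that the 2 groups filled unequally, so their levels are given by cluster first. In the cluster led by Ier5l and Havcr2 (1 and 6 Ex, 104 and 203 Sed cells) the 10 genes summed to 3563 and 3153 CPM in the Sed libraries. In the cluster led by Gzmk (3 and 2 Ex, 104 and 199 Sed cells) they summed to 2246 and 2117 CPM in the Sed libraries. The cluster led by Gzmm and Fcgrt (165 and 100 Ex, 28 and 13 Sed cells) had 2099 and 1302 CPM in the Ex libraries and 1802 CPM in Sed replicate 1. There Gapdh was at 700 and 424 CPM in Ex libraries and 640 CPM in Sed replicate 1, which lies between them. Within the clusters not led by Pdcd1, Havcr2, Gzmk or Tox (342 and 174 Ex, 36 and 47 Sed cells) no member was called by edgeR, where 0.119% of 5862 genes were, and 0 of 9 had an unadjusted p under 0.05. Gapdh was at -0.06, Pkm at -0.25 and Aldoa at 0.15 on the log2 scale.

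The pool of all these clusters compares different cell states and not 1 cell type in 2 groups. In it none of 9 members tested was higher and 3 were lower in Ex libraries, where 15.5% of 7966 genes were called and 8.05% were called lower. Gapdh had 669 and 477 CPM in Ex and 1182 and 1073 CPM in Sed libraries, a log2 change of -0.90 ± 0.20 (edgeR, adjusted p = 0.00157). Pkm had 220 and 157 CPM in Ex and 350 and 351 CPM in Sed libraries, a change of -0.82 ± 0.21 (edgeR, adjusted p = 0.00567). Aldoa had 242 and 202 CPM in Ex and 386 and 356 CPM in Sed libraries, a change of -0.67 ± 0.20 (edgeR, adjusted p = 0.0212). Ldha was not called, at 320 and 226 CPM in Ex and 306 and 292 CPM in Sed libraries. Without Ex replicate 2 no member was called in the pool. Pdcd1, the PD-1 receptor gene, was at 3.14 and 10.8 CPM in Ex and 153 and 175 CPM in Sed libraries of the pool, and the NK marker list at 582 and 634 CPM in Ex and 11016 and 9983 CPM in Sed libraries.

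Of 30 companion genes in the pooled class 5 rose and 2 fell, where 15.5% of 7966 genes were called and 8.05% called lower. The 2 that fell are near that share of all genes. Pdk1, whose product inhibits pyruvate dehydrogenase in the mitochondrion, rose by 1.33 ± 0.28. Slc16a1, the lactate and pyruvate transporter MCT1, rose by 1.28 ± 0.40, Myc by 1.18 ± 0.32 and Pfkl, the liver form of phosphofructokinase, by 0.87 ± 0.30. Hif1a fell by 0.90 ± 0.24 and Epas1, its relative HIF-2 alpha, by 1.90 ± 0.55. Myc, Pdk1 and Slc16a1 were negative in the clusters not led by Pdcd1, Havcr2, Gzmk or Tox (-0.35, -0.10 and -0.57) and Hif1a was positive (0.31), none of them called.

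The Ex against Sed change was also compared between Treg-like cells and the CD8 pool. It was higher in Treg-like cells for 7 of the 10 genes, where 5.86% of 7419 genes were called and 3.5% were called higher. Aldoa differed by 2.21 ± 0.24, Pkm by 1.80 ± 0.22 and Pgk1 by 1.62 ± 0.29. Gapdh differed by 1.60 ± 0.16, Ldha by 1.57 ± 0.24, Pfkp by 1.31 ± 0.36 and Eno1 by 1.09 ± 0.35. Over 8 alternatives the call of Eno1 held in 0 and that of Pfkp in 2. Leaving out single libraries gave from 4 to 6 genes, with 4 without Sed replicate 1. The count also rests on the mixed pool. Against only the CD8 clusters not led by Pdcd1, Havcr2, Gzmk or Tox, 0 of 8 members tested were called, where 0.408% of 3680 genes were. All 8 kept a positive sign, with Aldoa at 1.37 ± 0.31, Ldha at 1.24 ± 0.27 and Pkm at 1.22 ± 0.27 and edgeR's adjusted p between 0.0659 and 0.0712. With the Treg-like cells that carried Cd8a, Cd8b1 or Gzma removed as well, 0 of 8 were called, where 0.258% of 3482 genes were, and Aldoa was at 1.22 ± 0.36 (edgeR, adjusted p = 0.396).

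In Kupffer-like cells, macrophages that reside in the liver and clear particles from its blood, no member passed edgeR's test, where 0.183% of 7123 genes were called; 1 of 10 members had an unadjusted p under 0.05, and DESeq2 called 0. The class held 431 and 104 Ex and 314 and 1040 Sed cells. Pgk1 came nearest to a rise, with 219 and 195 CPM in Ex and 137 and 142 CPM in Sed libraries (log2 0.68 ± 0.28; edgeR, adjusted p = 0.507). Hk2 had 66.6 and 110 CPM in Ex and 116 and 146 CPM in Sed libraries (log2 -0.55). Ldha was close to level, at 395 and 378 CPM in Ex and 449 and 369 CPM in Sed libraries. Ex replicate 1 stood apart with 18656 CPM of erythroid markers, against 16.2 CPM in Ex replicate 2 and 45.5 and 491 CPM in the Sed libraries; its part in the values was not tested. A cluster of few UMIs per cell held 401 and 79 of the Ex cells and 233 and 594 of the Sed cells. Without it, in 30 and 25 Ex and 81 and 446 Sed cells, Pkm was at -1.40 (edgeR, adjusted p = 0.176) and 9 members at a median of -0.50. No gene of 5789 was then called.

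Other macrophage-like cells, 818 and 313 Ex and 247 and 356 Sed cells, also had no member called by edgeR, where 0.21% of 9503 genes were; 2 of 10 members had an unadjusted p under 0.05, and DESeq2 called 0. Hk2 was the nearest, with 184 and 237 CPM in Ex and 114 and 125 CPM in Sed libraries (log2 0.86 ± 0.21; edgeR, adjusted p = 0.124), and Pfkp had 101 and 164 CPM in Ex and 74.4 and 86.8 CPM in Sed libraries (log2 0.76; adjusted p = 0.251). For both of these early enzymes the groups did not overlap, and for the other 8 genes they did. The share of all genes with both Ex above both Sed libraries was 21.4% here, close to these 2 of 10. Hk2 passed the test in the cluster led by Cxcl9, Arg1 and Spp1 alone, at 0.81 ± 0.20 (edgeR, adjusted p = 0.041), where 3.3% of genes were called and 1.38% called higher. The difference between the 2 macrophage classes was itself called for Hk2, whose Ex against Sed change was higher in other macrophage-like than in Kupffer-like cells by 1.42 ± 0.33 (edgeR, adjusted p = 0.00234, where 2.4% of 9918 genes were called and 1.09% called higher). Without Ex replicate 1 and without Sed replicate 2 this adjusted p was 0.0582 and 0.0707. None of the other 9 genes passed this test. In the cluster led by Cx3cr1 no gene of 6242 was called.

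The macrophages were a mixture whose parts shifted between the groups. At finer resolution a cluster led by Spp1, Arg1 and Hilpda, a HIF target, had the highest summed level, at 7394 and 9930 CPM in Ex (33 and 24 cells) and 9987 and 10234 CPM in Sed libraries (191 and 124 cells). A cluster led by the interferon-induced chemokine genes Cxcl9 and Cxcl10 had 6227 and 7389 CPM in Ex (647 and 255 cells) and 6872 and 6085 CPM in Sed libraries (28 and 47 cells). In it Hk2 was at 201 and 250 CPM in Ex and 68.4 and 124 CPM in Sed libraries. A cluster led by Cx3cr1 and Cd207 had the lowest summed level, at 3019 and 1922 CPM in Ex and 4324 and 2576 CPM in Sed libraries. Hk2 was thus higher in the Ex libraries within the Cxcl9 cluster, where the summed level overlapped.

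**Figure D4:**
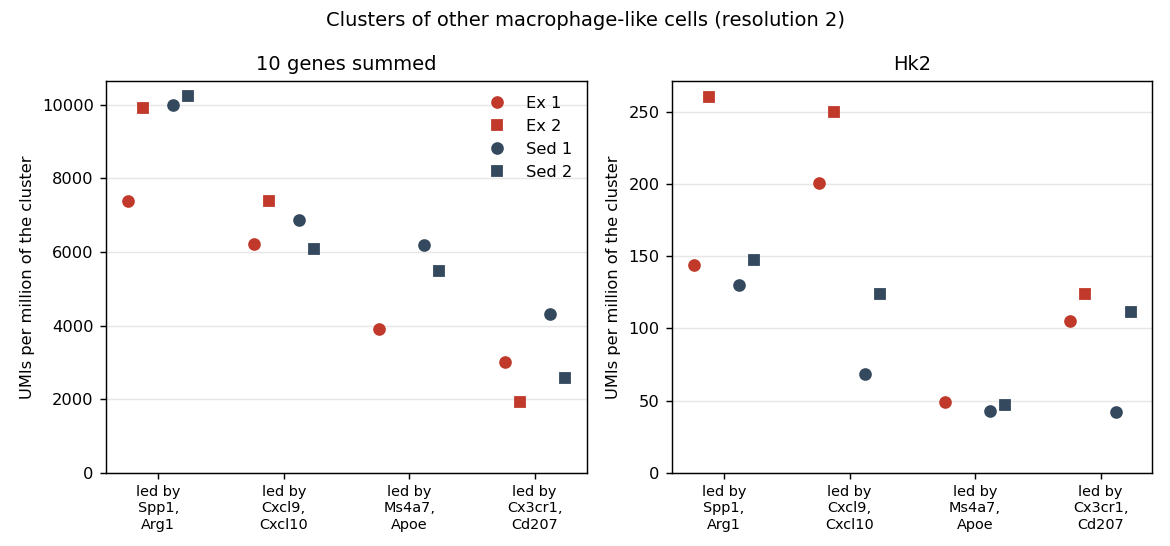
Levels of the 10 genes summed (left) and of Hk2 (right) in 4 clusters of other macrophage-like cells, in CPM of the cluster, on linear axes; each point is 1 library, Ex left of Sed, and libraries with under 20 cells are not shown. The Spp1 and Arg1 cluster is highest for the sum (up to 10234 CPM), and Hk2 in the Cxcl9 cluster is above 200 CPM in Ex and below 125 CPM in Sed.

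In neutrophil-like cells no member was called by edgeR, where 0.382% of 7592 genes were, or by DESeq2, and 0 of 10 had an unadjusted p under 0.05. The class held 578 and 361 Ex and 2230 and 1249 Sed cells. Hk2 had 81.6 and 63.6 CPM in Ex and 46.5 and 40.9 CPM in Sed libraries (log2 0.54 ± 0.25; edgeR, adjusted p = 0.338), and Pfkp had 59.2 and 84.3 CPM in Ex and 36.5 and 51.0 CPM in Sed libraries (log2 0.48). Ldha had 331 and 300 CPM in Ex and 338 and 386 CPM in Sed libraries (log2 -0.41). Hk2 and Pfkp were thus higher and Ldha lower in both Ex libraries, each short of the test, where 36.0% of all genes were higher and 11% lower in both. The groups filled different clusters: the one led by Retnlg held 42 and 17 Ex and 1389 and 658 Sed cells, and the one led by Acod1 447 and 298 Ex and 456 and 468 Sed cells. The remaining genes overlapped, such as Gapdh at 1152 and 911 CPM in Ex and 1124 and 1153 CPM in Sed libraries. In the cluster led by Acod1, which all 4 libraries filled, no member was called either, where 0.0935% of 5347 genes were. There the members had a median log2 change of 0.26, against -0.12 in the whole class. These medians were not set against those of all genes, so they describe no lean particular to the members. No member's change was called different between neutrophil-like and Kupffer-like cells, where 0.213% of 9385 genes were called. Of the companion genes none passed the test in Kupffer-like cells (30 tested), other macrophage-like cells (39) or neutrophil-like cells (33).

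Outside these classes, dividing lymphocytes (72 and 25 Ex, 72 and 80 Sed cells) had all 10 genes higher in both Ex than in both Sed libraries, as were 28.4% of the 9396 genes with at least 10 UMIs. Of the 10 genes 4 passed the test, where 6.41% of 6596 genes were called and 2.7% called higher. Pgam1 had 357 and 357 CPM in Ex and 129 and 140 CPM in Sed libraries, a log2 change of 1.33 ± 0.19 (edgeR, adjusted p = 4.3e-05). Hk2 had 45.0 and 46.2 CPM in Ex and 10.5 and 7.18 CPM in Sed libraries, a change of 2.21 ± 0.42 (edgeR, adjusted p = 0.00115). Ldha and Aldoa rose by 0.98 ± 0.19 and 0.73 ± 0.18. Of 26 companion genes 5 rose, Tpi1, Slc16a3, Eno3, Pfkl and Slc16a1. This class mixes lymphocytes of several kinds, and its NK marker list stood at 1015 and 1055 CPM in Ex and 13036 and 7482 CPM in Sed libraries. Its CD8 T list stood at 2098 and 2715 CPM in Ex and 9453 and 12218 CPM in Sed libraries. The part of these shifts in the result was not tested.

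In monocyte-like cells Hk2 was the 1 member called, at 128 and 93.7 CPM in Ex and 56.9 and 61.9 CPM in Sed libraries, a log2 change of 0.93 ± 0.18 (edgeR, adjusted p = 0.0330), where 3.49% of 10178 genes were called and 2.08% called higher. It did not pass without Ex replicate 1 or without Ex replicate 2. The groups filled different clusters, with 51 and 38 Ex and 1031 and 928 Sed cells in the one led by Chil3 and 645 and 314 Ex and 235 and 403 Sed cells in the one led by Gm26917. Hk2 was at 97.5 and 85.7 CPM in Ex and 57.2 and 56.7 CPM in Sed libraries in the Chil3 cluster, and at 131 and 95.2 CPM in Ex and 54.6 and 78.6 CPM in Sed libraries in the Gm26917 cluster. In the whole class 5 members were lower in both Ex than in both Sed libraries, as were 26.4% of all genes. Gapdh, among them, did not pass the test, at 1304 and 1093 CPM in Ex and 1849 and 1821 CPM in Sed libraries. Pfkfb3, which makes the activator of phosphofructokinase, rose by 1.10 ± 0.19, one of 2 companion genes called of 41. The neutrophil marker list was at 521 and 1921 CPM in Ex and 13585 and 5912 CPM in Sed monocyte-like cells, and its part was not tested. No member was called by edgeR or DESeq2 in conventional dendritic-like cells, where 0.0925% of 8645 genes were, or in dividing myeloid cells, where 1.31% of 8061 were. At an unadjusted p under 0.05 there were 1 and 2 of 10.

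**Figure D5:**
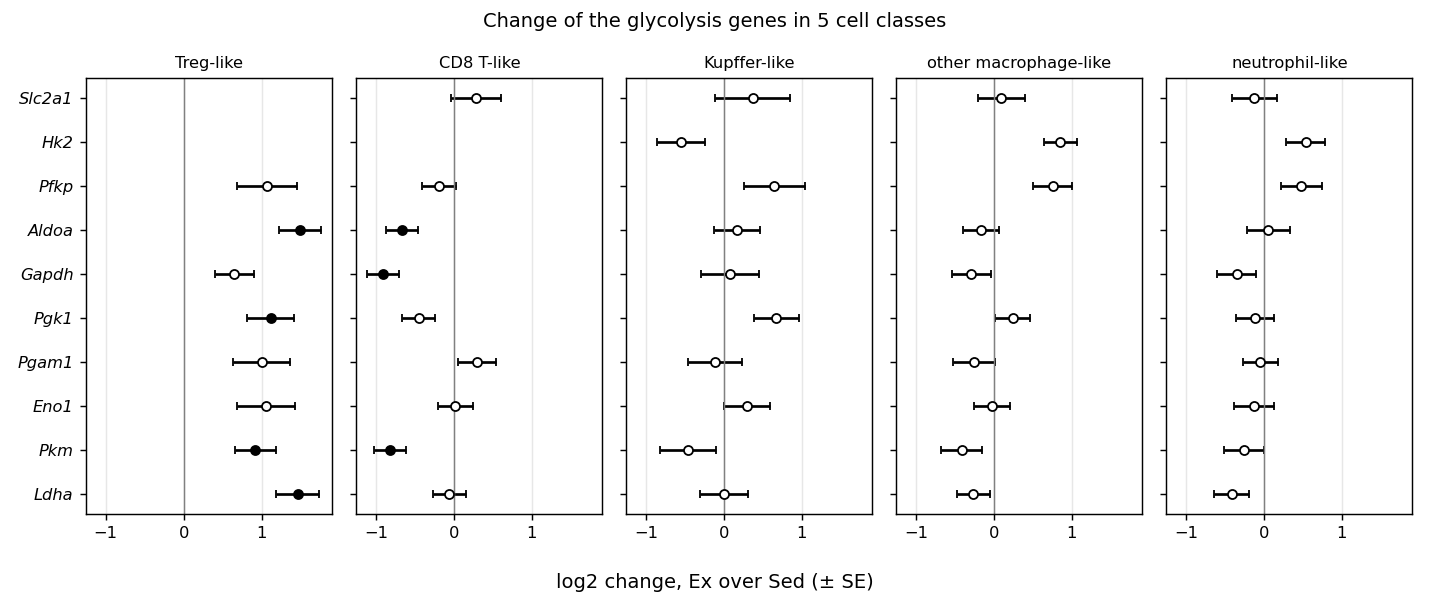
Log2 change of each glycolysis gene in Ex over Sed libraries with its standard error in 5 classes; filled points passed adjusted p under 0.05 and missing points were not tested. The tested genes lie right of 0 in Treg-like cells, from 0.65 to 1.49, and on both sides of 0 in the other 4 classes.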

How the data were processed

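Gene-by-cell UMI counts were deposited by the authors as 1 aggregated matrix; Cell Ranger 7.0.0 and the build GRCm38 (mm10) are named per the submitters' processing notes, while the file header names version 6.1.1. The matrix holds 51140 columns, of which 28525 have a barcode in the files and 22615 were not used. Libraries were told apart by barcode suffix, read in the order of the deposited aggregation table. This order is a limit on every Ex against Sed value. A cell needed 200 detected genes or more, and no more than 10% of its UMIs from mitochondrial genes. The automatic doublet threshold marked from 0 to 3.498% of cells, so the highest doublet scores were removed at 0.8% per 1000 cells (293 and 144 Ex, 422 and 462 Sed cells). Cells were clustered with scanpy 1.11.5 and leidenalg 0.10.2 (2000 variable genes, 30 components, 15 neighbours, resolution 1, T cells again at 2), with the 10 genes and the companion list left out.

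UMIs were summed per library and class where each library held at least 30 cells (20 for the alternatives and the dividing, dendritic and monocyte classes), and tested with edgeR 4.0.16 in R 4.3.3 (TMM, filterByExpr, Benjamini-Hochberg over all genes tested, threshold 0.05). Class contrasts had the library as a block. DESeq2 1.42.0 was an alternative. The errors given are standard errors of the fit (SE) and rest on 2 libraries a group. In counts simulated for the CD8 T-like sums 41 of 100 planted 2-fold and 94 of 100 4-fold changes were called, and for Kupffer-like sums 9 and 72 of 100. CD4 T-like cells were planned as the T cell class but were too few in Sed libraries, so CD8 T-like cells took their place. The genes named were all 10 members in each class, the called companion genes with the smallest p, and a fixed few such as Hif1a. The members and lists were chosen with earlier results of these data known.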

Additional observations from a re-analysis of the deposited data

Results flagged for a closer look

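The Ex against Sed change of some genes differed between cell classes by a test of the difference itself (edgeR, log2 scale). For Hk2 it was higher by 1.42 in other macrophage-like than in Kupffer-like cells. Between Treg-like cells and the CD8 pool it was higher in Treg-like cells by 2.21 for Aldoa, 1.80 for Pkm, 1.62 for Pgk1 and 1.60 for Gapdh. It was higher by 1.57 for Ldha, 1.31 for Pfkp and 1.09 for Eno1. None of these 7 was called once the CD8 side was limited to the clusters not led by Pdcd1, Havcr2, Gzmk or Tox, which were chosen after seeing the data.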

How the results depend on the processing

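The number of members called moved with several settings. The number of all genes called moved too, as given below for some classes. The counts that follow are therefore no measure of the members apart from other genes. In other macrophage-like cells it was 2 with no low-count filter, 1 with a stricter cell filter and 1 in the cluster led by Cxcl9, against 0. All of these were higher in Ex libraries, and 3.3% of genes were called in the Cxcl9 cluster. The median log2 change of the members was negative in these settings, at -0.08, -0.28 and -0.32, and at -0.33 without Sed replicate 2. In Treg-like cells the number called was 2 with DESeq2's Wald test, a stricter cell filter, doublets kept or members among the clustering genes, against 4. In the CD8 pool it was 1 with a stricter filter or doublets kept and 0 in the clusters not led by Pdcd1, Havcr2, Gzmk or Tox, against 3. For the difference between Treg-like cells and the CD8 pool it was 0 with those clusters, with or without the Treg-like cells that carried Cd8a, Cd8b1 or Gzma, against 7. In monocyte-like cells it was 2 with DESeq2's Wald test and 3 with no filter, against 1, of which 1 and 2 were lower, and in dendritic-like cells 1 with no filter, against 0. Without a scaling factor it was 5 for neutrophil-like against Kupffer-like and against CD8 T-like cells, and 6 for Treg-like against CD8 T-like cells (3 with DESeq2 size factors or no filter). For Kupffer-like against CD4 T-like cells it was 6 without a scaling factor, 5 with a stricter filter and 7 with members among the clustering genes.

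Leaving out single libraries gave from 0 to 2 in Treg-like, 0 to 3 in CD8 T-like, other macrophage-like and dendritic-like, 0 to 4 in monocyte-like and 2 to 7 in dividing lymphocytes. It gave 0 to 6 for Treg-like against CD8 T-like cells, 4 to 6 for the difference between their changes and 0 to 1 for the Hk2 difference between macrophage classes.

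Directions turned in the CD8 clusters not led by Pdcd1, Havcr2, Gzmk or Tox for Aldoa (0.15), Hif1a (0.31), Myc (-0.35), Pdk1 (-0.10) and Slc16a1 (-0.57). Without a scaling factor Ldha was at -0.23 for neutrophil-like against Kupffer-like cells and Eno1 at -0.0061 against CD8 T-like cells. Against CD4 T-like cells Aldoa was at -0.15, Gapdh at -0.43, Pgk1 at -0.46, Eno1 at -0.70 and Ldha at -0.73, and all of these but Aldoa passed the test as lower. The cause was not tested.

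With the replicate number as a block, 4 members were called in Treg-like, 3 in CD8 T-like, 3 in monocyte-like (2 of them lower) and 6 in dividing lymphocytes, and 0 in Kupffer-like, other macrophage-like and neutrophil-like cells. The labels do not pair the libraries, and the correlation of same-numbered deviations was from -0.01 to 0.176. Over the settings that kept all 4 libraries and the whole class, counts over all genes moved more, from 13 to between 0 and 171 in Kupffer-like, 20 to between 4 and 644 in other macrophage-like and 29 to between 13 and 771 in neutrophil-like cells. They moved from 45 to as few as 6 in Treg-like and from 1232 to as few as 514 in CD8 T-like cells. Hk2 and Slc2a1 had too few UMIs in Treg-like cells to be tested.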
